A study of Solanum lycopersicum with 9 samples.

Results

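Stretches of chromatin that carried H3K27me3 in *ddm1* leaves and not in wild-type (WT) leaves are described here, as far as both *ddm1* libraries show them. They were selected by their H3K27me3 peaks alone. A member is a peak of *ddm1* replicate 1 on one of the 12 chromosomes that shares no bp with a WT H3K27me3 peak and at least 1 bp with a replicate 2 peak of 10 kb or shorter. Of the 32491 replicate 1 peaks, 19289 (59.4%) lay outside WT peaks, and 11409 (35.1%) met the whole rule. The 9 lists of the series held 266074 peaks in all. Because the rule reads the H3K27me3 lists, the number of members, their length, their enrichment and their distance to WT H3K27me3 peaks are descriptions. The 3 other marks and the position along the chromosome were not used to choose them.

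The study followed histone marks by ChIP-seq, sequencing of DNA bound to immunoprecipitated chromatin, in the fourth leaf of 1-month-old tomato plants (*Solanum lycopersicum*). The paper gives M82 as the cultivar of its seeds and names no other background for the mutant. WT was M82, and *ddm1* carried CRISPR mutations in both tomato DDM1 genes, *Slddm1a* and *Slddm1b*. Plants of both genotypes grew in a growth chamber with no treatment named, and whole leaf tissue was used, so that all its cell types are mixed in each list. There was 1 list per genotype for H3K9ac, H3K9me2 and H3K27me1, 1 WT list for H3K27me3 and 2 *ddm1* lists for H3K27me3. The paper's methods report 2 biological replicates per genotype for ChIP-seq. Whether a list stands for 1 replicate or for pooled ones is not given.

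H3K27me3 is deposited by Polycomb repressive complexes and marks facultative heterochromatin, that is, genes kept silent in some tissues or stages. H3K9me2 and H3K27me1 mark constitutive heterochromatin, which in plants is rich in transposable elements and DNA methylation, whereas H3K9ac marks active chromatin at the start of expressed genes. DDM1 is a chromatin remodeller that keeps DNA methylation in heterochromatin, and its loss frees transposable elements from silencing.

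Replicate 2 stood apart and needs a caution ahead of the results. The name of its deposited list held M82, which is the cultivar the paper gives for its seeds, while its labels give *ddm1*. Whether that name was meant as the WT genotype cannot be told here, and replicate 2 was kept as labelled. It covered 128 Mb (16.0% of the chromosomes) against 23.6 Mb in replicate 1 and 42.8 Mb in WT, and 2553 of its peaks were longer than 10 kb, the longest having 185363 bp. It overlapped 84.1% of the replicate 1 peaks that lay outside WT peaks, 79.3% of those that overlapped a WT peak, 38.5% of all WT peaks, and 17.7% of the 24058 WT peaks absent from replicate 1. Values without replicate 2 are therefore given over all 19289 new replicate 1 peaks. Peak lists hold no read totals, so the depth behind them is unknown. Intervals are 95% intervals for counting error. They treat peaks as independent and do not cover the spread between plants, which cannot be shown with 1 list per group, or 2 for *ddm1* H3K27me3.

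The members were short and weakly enriched. Their length ran from 187 to 3800 bp with a median of 478 bp, the middle 50% lay between 304 and 811 bp, and together they covered 7.32 Mb. Replicate 1 peaks that overlapped a WT peak, called kept peaks below (n = 13202), were longer, with a median of 733 bp. New peaks absent from replicate 2 (n = 3066) were shorter, with a median of 345.5 bp, as were new peaks found only in replicate 2 peaks over 10 kb (n = 4814), with a median of 398 bp. The enrichment of members over the background of the peak caller ran from 1.47-fold to 4.21-fold in replicate 1 with a median of 1.99-fold, against 2.21-fold in kept peaks. A q-value of 0.01 or lower was reached by 4274 members (37.5%) and by 70.2% of kept peaks.

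In replicate 2 the same stretches belonged to wider peaks. The replicate 2 peak at a member, the longest where there were more, had a median length of 2698 bp. The ratio of its length to that of its member had a median of 4.82. This replicate 2 peak was the longer of the pair in 89.9% of members. Its median enrichment was 2.06-fold. Of the members, 8564 (75.1%) lay wholly inside replicate 2 peaks, 912 (7.99%) were covered over less than 50% of their length, and the smallest overlap was 1 bp. The 11409 members belonged to 9301 replicate 2 peaks, of which 7433 (79.9%) held a single member and none held more than 6, so that members of 1 replicate 2 peak are not separate observations there.

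The limit of 10 kb fell within a continuous range. Just inside it lay members at chr9:52459787-52460218 (432 bp, replicate 2 peak of 9995 bp) and chr8:31815784-31816979 (1196 bp, replicate 2 peak of 9994 bp). Just outside it lay chr5:22848903-22849090 (188 bp, replicate 2 peak of 10012 bp) and chr8:21496666-21497020 (355 bp, replicate 2 peak of 10018 bp). Their replicate 1 enrichments were 2.02-fold and 1.89-fold inside and 1.90-fold and 1.79-fold outside. All positions are in the M82 V1.0 assembly, and no gene or transposon annotation of that assembly was used here.

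**Figure D1:**
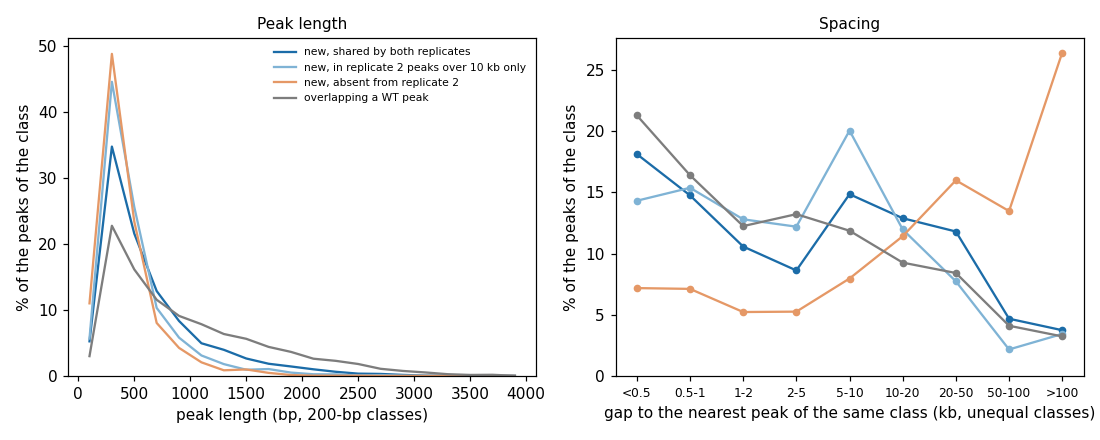
Length (left, bp in 200-bp classes) and gap to the nearest peak of the same class (right, kb in classes of unequal width) of *ddm1* H3K27me3 replicate 1 peaks, as % of the peaks of each class. The shared new peaks lay between the kept peaks and the new peaks absent from replicate 2 in length, with medians of 478, 733 and 345.5 bp.

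The 5 longest members lay between 29917 and 86828 bp from the nearest WT H3K27me3 peak, around the median of all members given below. The longest was chr4:12252208-12256007, with 3800 bp, an enrichment of 2.14-fold in replicate 1 and 3.87-fold in replicate 2, and it was the one with 86828 bp to WT H3K27me3. It held no other mark inside, and its flanks held 267 bp of WT H3K9me2 and 2249 bp of *ddm1* H3K9ac. The next was chr6:11488073-11491724, with 3652 bp, an enrichment of 1.98-fold in replicate 1 and 4.99-fold in replicate 2, and 643 bp of *ddm1* H3K9ac inside. In its flanks, 1098 bp of H3K9me2 were found in WT and 3646 bp of H3K9ac in *ddm1*. The others were chr10:42591867-42595138 (3272 bp), chr5:23901284-23904445 (3162 bp) and chr7:44464184-44467275 (3092 bp), the chr10 and chr5 members with 513 and 614 bp of *ddm1* H3K9ac and the chr7 member with no other mark. None of these 5 held WT H3K9ac, H3K9me2 or H3K27me1.

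The most enriched members were different ones. The top pair, 261 and 292 bp long, lay at chr6:38542946-38543206 and chr6:38568912-38569203. They reached 4.21-fold and 4.08-fold in replicate 1 and 2.76-fold and 2.29-fold in replicate 2, with no other mark inside or in the flanks. The others were chr4:15755390-15756263 (3.93-fold in replicate 1 and 2.31-fold in replicate 2, with 619 bp of *ddm1* H3K9ac), chr7:65599572-65600498 (3.93-fold and 2.304-fold, with 736 bp of *ddm1* H3K9ac) and chr10:57988756-57989085 (3.71-fold and 2.85-fold, with no other mark). The replicate 1 value was above that of replicate 2 in each of these 5, which were ranked by replicate 1.

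The members favoured the interior of the chromosomes. Of the 11409, 6866 (60.2%, interval 59.3 to 61.1) lay in the central 50% of their chromosome, against 29.4% (28.6 to 30.2) of kept peaks. Over all replicate 1 peaks this share was 47.2%. The outermost 10% at each end together held 5.83% of members and 33.8% of kept peaks. The central share was 60.1% for new peaks absent from replicate 2, 57.3% for those in long replicate 2 peaks only, and 59.4% for all new peaks without regard to replicate 2. Members, like the other new peaks, lay where active chromatin was sparse. The median number of WT H3K9ac peaks within 500 kb was 11 around a member and 85 around a kept peak. It was 13 around new peaks absent from replicate 2 and 9 around those in long replicate 2 peaks only. Over all new peaks it was 10, and over all replicate 1 peaks 17.

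**Figure D2:**
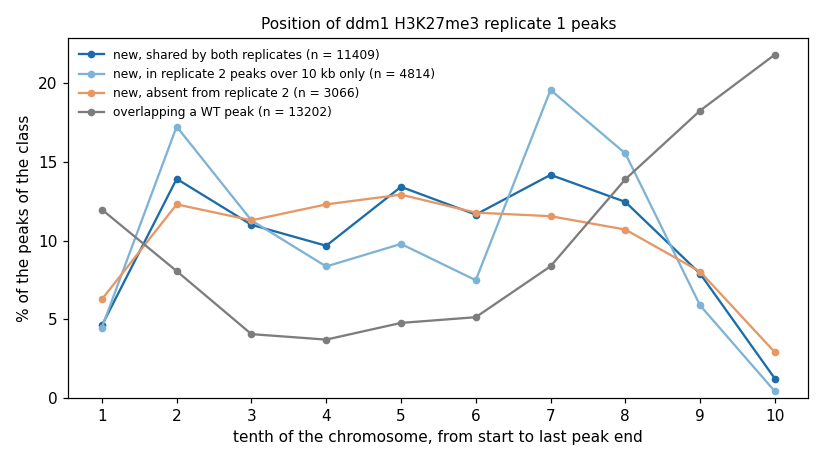
Share of *ddm1* H3K27me3 replicate 1 peaks (% of each class) in 10 equal parts of the chromosomes, from the start to the last peak end, summed over 12 chromosomes. The shared new peaks were rare in the last part (1.23%) and in the first (4.60%), and between 7.90% and 14.2% fell in each of the others.

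The density of members differed between chromosomes. It was lowest on chromosome 3 with 9.52 members per Mb, followed by chromosomes 2 and 6 with 10.1 and 10.4, and highest on chromosome 10 with 20.7 members per Mb. Chromosome 1 held the most members (1478) and chromosome 6 the fewest (541). Members made up 24.0% of the replicate 1 peaks of chromosome 2 and 42.6% of those of chromosome 5.

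Members are a part of the replicate 1 list, so none can lie closer to another member than to its nearest replicate 1 peak. The median gap from a member to the nearest other member was 4385 bp (middle 50%, 670 to 15056 bp). Within the whole replicate 1 list the median gap was 2157 bp. Among the more numerous kept peaks it was 2011 bp, and among the fewer new peaks absent from replicate 2 it was 28089 bp. The gap depends on how many peaks a class holds, and the median was 3608 bp over all new replicate 1 peaks and 639 bp when replicate 1 was left out and the new replicate 2 peaks of 10 kb or shorter were taken instead. With a gap of at most 5 kb, 5940 members (52.1%) formed 2509 runs and 5469 (47.9%) stood alone. A neighbour of the same class within 5 kb was found for 62.0% of all replicate 1 peaks, 63.1% of kept peaks and 54.6% of all new peaks. Of the runs, 1861 held 2 members, 597 held 3 or 4 and 51 held 5 or more. A run spanned a median of 2442 bp. No neighbouring members were closer than 305 bp.

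Most members did not border WT H3K27me3. The nearest WT H3K27me3 peak lay at a median distance of 46246 bp (middle 50%, 15146 to 122974 bp). Only 3.13% of members had one within 1 kb and 10.2% within 5 kb, whereas 47.9% were more than 50 kb away. All new replicate 1 peaks were alike, with a median of 47454 bp and 10.9% within 5 kb. The median was 33453.5 bp for new peaks absent from replicate 2 and 59960.5 bp for those in long replicate 2 peaks only. Leaving out those within 1 kb kept 11052 members.

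The fullest window and the largest runs of members lay on chromosome 10. Of the 808 windows of 1 Mb, 115 held no member, the median was 12 and the fullest, chr10:58000001-59000000, held 102. WT H3K27me3 peaks covered 55823 bp of that window, replicate 1 peaks 73801 bp and replicate 2 peaks 249727 bp. The runs with the most members were chr10:57797528-57841115 with 17 members and chr10:57873295-57911214 with 13, both in the window before it, followed by chr4:56727481-56746720 with 11. WT H3K27me3 was absent from the span of each run. The only other mark at their members was a WT H3K27me1 peak at 1 member of the chr10 run of 13.

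After the counts above had been seen, the members of the fullest window and of the window before it were examined together. Between 57 and 59 Mb of chromosome 10 lay 192 members with a median length of 388.5 bp, a median replicate 1 enrichment of 2.29-fold and a median distance of 192949 bp to WT H3K27me3. None of the 192 held H3K9ac in either genotype, and 7 had a *ddm1* H3K9ac peak within 5 kb. An upper limit for the count of 0, taken as 3 divided by 192 and not from a Wilson interval, was 1.56%. The stretch was not free of H3K9ac: its peaks covered 93.6 kb in WT and 75.9 kb in *ddm1*, and 11 of the 41 kept peaks there held it in each genotype. The difference in H3K9ac between genotypes over all members, given next, was 14.4 points with these 192 and 14.7 points without them.

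H3K9ac, the mark of active chromatin, had the largest of the 3 *ddm1* lists and was the mark most often found at the new H3K27me3 peaks in *ddm1*. The *ddm1* lists held 76513 peaks of H3K9ac, 7361 of H3K9me2 and 9247 of H3K27me1. They covered 5.25%, 0.808% and 0.252% of the chromosomes. A WT H3K9ac peak was present at 64 members (0.561%, interval 0.440 to 0.716), where 9.11% of all replicate 1 peaks had one. A *ddm1* H3K9ac peak was present at 1709 members (14.98%, 14.3 to 15.6), close to the 15.9% of all replicate 1 peaks. The share was 14.4 points higher in *ddm1* than in WT (interval 13.8 to 15.1): 1672 members had the mark in *ddm1* only, 27 in WT only and 37 in both. Kept peaks had it in 21.3% in WT and in 20.2% in *ddm1*. Without replicate 2, over all new replicate 1 peaks, the shares were 0.778% in WT and 12.96% in *ddm1*.

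The size of this difference depended on the lists compared. The *ddm1* H3K9ac list was the longer, with 76513 peaks against 42622 in WT. With lists of equal size, made of the strongest peaks by p-value, the difference was 7.55 points. With at least 50% of a member covered it was 5.16 points. H3K9ac peaks covered 0.267% of the length of members in WT and 7.21% in *ddm1*, while they covered 3.91% and 5.25% of the chromosomes.

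Long members held *ddm1* H3K9ac more often than short ones. The share was 8.56% (7.58 to 9.67) in members under 300 bp, 10.7% (9.72 to 11.9) in those of 300 bp to under 500 bp, 17.1% (15.9 to 18.4) in those of 500 bp to under 1 kb and 27.2% (25.3 to 29.2) in those of 1 kb or more. A longer peak meets another mark more easily, and the covered part of the length differed less, from 6.06% in the shortest class to 7.57% in the longest. In the central 50% of the chromosomes 16.0% of members held *ddm1* H3K9ac, and in the outer 50%, 13.4%. By chromosome the share ran from 11.1% (9.33 to 13.1) on chromosome 4 to 19.7% (16.8 to 22.9) on chromosome 3, and the WT share did not exceed 1.97% on any.

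**Figure D3:**
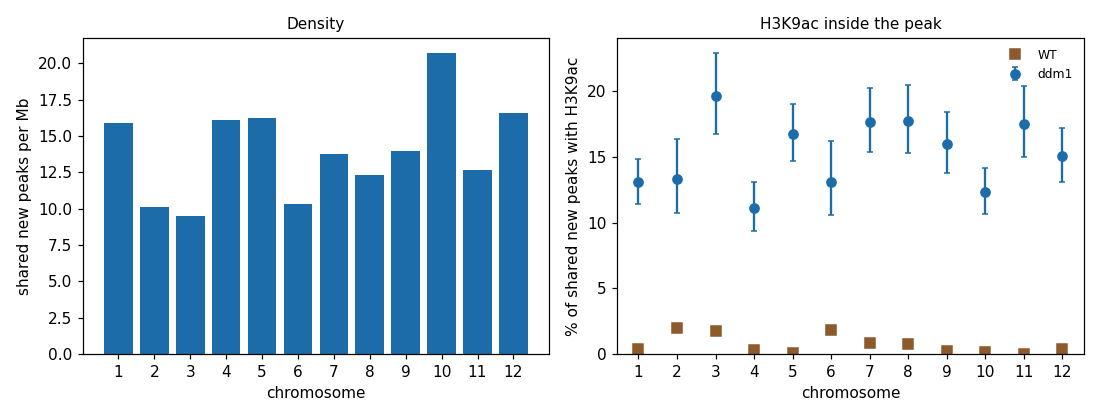
Members per Mb of each chromosome (left) and % of members with H3K9ac inside the peak (right), in *ddm1* (circles with 95% Wilson intervals) and in WT (squares). Density was highest on chromosome 10 (20.7 per Mb), and the *ddm1* H3K9ac share was above the WT share on each of the 12 chromosomes.

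The members with the most *ddm1* H3K9ac were covered by it over most of their length. At chr11:27684359-27687380, a member of 3022 bp, *ddm1* H3K9ac covered 2270 bp, and the flanks held 810 bp of WT H3K9me2. At chr2:30396205-30398141 it covered 1896 of 1937 bp, and here the flanks held H3K9ac already in WT (2840 bp). At chr10:32271333-32273438 it covered 1676 of 2106 bp, and 5368 bp of the flanks. None of these 3 had WT H3K9ac inside.

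WT H3K9ac inside a member was rare, and its longest cases lay close to WT H3K27me3. The 3 members with most of it were chr7:64135986-64137844 (966 bp, 264 bp in *ddm1*), chr3:3093382-3094769 (956 bp, 1379 bp in *ddm1*) and chr6:39177879-39178602 (724 bp, none in *ddm1*). Their nearest WT H3K27me3 peaks lay 1768, 801 and 2890 bp away. Among the 1160 members with a WT H3K27me3 peak within 5 kb, 4.91% held WT H3K9ac and 15.3% held *ddm1* H3K9ac.

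The constitutive heterochromatin mark H3K9me2 was scarce at members in both genotypes, and scarcer in *ddm1*. WT peaks were present at 154 members (1.35%, 1.15 to 1.58), where 0.705% of all replicate 1 peaks had one, and *ddm1* peaks at 26 (0.228%, 0.156 to 0.334), where 0.148% of all replicate 1 peaks had one. The difference, *ddm1* minus WT, was -1.12 points (interval -1.36 to -0.905), and 5 members held the mark in both genotypes. It was -0.438 points when only H3K9me2 peaks with a q-value of 0.01 or lower were used. The 2 lists differed in their shortest peak, 700 bp in WT and 500 bp in *ddm1*. With 1 minimum length for both the difference was -1.24 points. In kept peaks the shares were 0.0379% in WT and 0.106% in *ddm1*.

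H3K27me1, the other mark of constitutive heterochromatin, had the same order. WT peaks were present at 192 members (1.68%, 1.46 to 1.94), where 0.868% of all replicate 1 peaks had one, and *ddm1* peaks at 27 (0.237%, 0.163 to 0.344), where 0.142% of all replicate 1 peaks had one. The difference was -1.45 points (interval -1.70 to -1.21), and 9 members held the mark in both genotypes. The *ddm1* list was the longer here, with 9247 peaks against 6044. The overlaps were partial, since the median overlap was 168 bp in WT, and with at least 50% of a member covered the difference was -0.149 points (-0.250 to -0.0631). Without replicate 2 the shares of all new peaks were 1.16% and 0.176% for H3K9me2 and 1.42% and 0.213% for H3K27me1, in WT and *ddm1*.

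**Figure D4:**
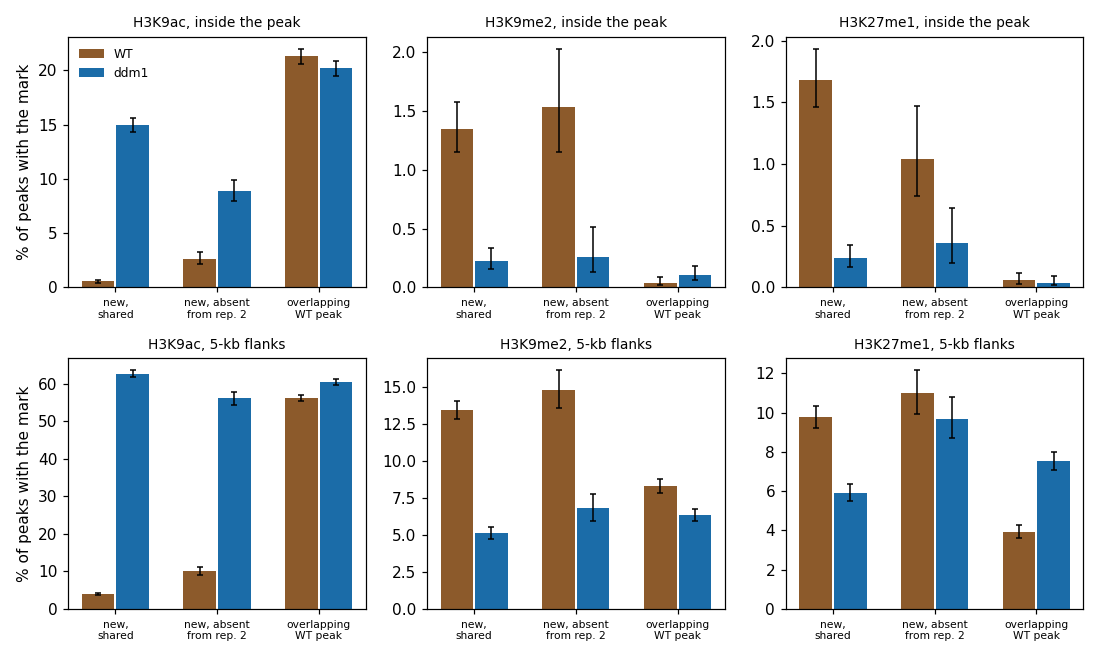
Share of peaks (%) with a peak of each mark inside (upper row) or in the 5-kb flanks (lower row) in WT and *ddm1*, with 95% Wilson intervals, for the 11409 shared new peaks, the 3066 new peaks absent from replicate 2 and the 13202 kept peaks. At shared new peaks H3K9ac was at 0.561% in WT and 14.98% in *ddm1*, while H3K9me2 and H3K27me1 were lower in *ddm1*.

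Taking the 3 marks together, most members had no called peak of them in either genotype. The lists covered little of the chromosomes, so a short stretch often meets none of them. In WT they covered 3.91% (H3K9ac), 1.36% (H3K9me2) and 0.161% (H3K27me1), and in *ddm1* 5.25%, 0.808% and 0.252%. No peak of H3K9ac, H3K9me2 or H3K27me1 was present in WT at 11018 members (96.6%) or in *ddm1* at 9654 (84.6%), and 9419 (82.6%) had none in either. The share with none in either was 88.0% among new peaks absent from replicate 2 and 72.9% among kept peaks. In the same order, 94.9% and 78.6% had none in WT, and 90.6% and 79.7% had none in *ddm1*. Shares of these states were not computed over all replicate 1 peaks. The next state was none in WT and H3K9ac in *ddm1*, with 1563 members (13.7%). It held 6.49% of new peaks absent from replicate 2 and 5.61% of kept peaks. Each other combination held fewer than 1% of members. The largest were WT H3K27me1 with none in *ddm1* (109 members) and WT H3K9me2 with none in *ddm1* (86 members). In WT, 19 members held H3K9me2 together with H3K27me1.

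At members where a heterochromatin mark had been present in WT, *ddm1* H3K9ac was found more often. Of the 154 members with WT H3K9me2, 48 (31.2%, 24.4 to 38.9) held *ddm1* H3K9ac, against 14.8% (14.1 to 15.4) of the members without it. Of the 192 members with WT H3K27me1, 63 (32.8%, 26.6 to 39.7) held *ddm1* H3K9ac, against 14.7% (14.0 to 15.3) of the others. These members were also longer, with medians of 695 and 767 bp against 476 and 475 bp, and members of 500 bp to under 1 kb as a class were at 17.1%. The part of the difference that goes with length was not tested. Among new peaks absent from replicate 2, 3 of the 47 with WT H3K9me2 (6.38%, 2.19 to 17.2) held *ddm1* H3K9ac, against 8.91% of those without it. The order for H3K9me2 was thus reversed there, on few peaks and with a wide interval. Of the 32 with WT H3K27me1, 9 (28.1%, 15.6 to 45.4) held *ddm1* H3K9ac, against 8.67% of those without it.

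The members richest in heterochromatin marks give single examples of these states. At chr11:36332203-36333917 the whole 1715 bp were covered by H3K9me2 in WT and none of it in *ddm1*. At chr9:52444929-52447061, 1578 bp of WT H3K9me2 were found and no other mark inside. At chr3:43128182-43129846 WT H3K9me2 covered all 1665 bp and WT H3K27me1 149 bp, and in *ddm1* H3K27me1 covered 962 bp and H3K9ac 276 bp, so that it held more H3K27me1 in *ddm1* than in WT. WT H3K27me1 was longest at chr12:42246715-42248733 (546 bp), chr5:57338087-57339555 (524 bp, beside 1056 bp of WT H3K9me2) and chr10:21006323-21007188 (465 bp). Of these 3, the chr10 member alone held a mark in *ddm1*, 312 bp of H3K9ac.

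A few members combined the new H3K27me3 peak with *ddm1* H3K9me2 or H3K27me1. The most *ddm1* H3K9me2 was at chr7:12027911-12029315 (1266 of 1405 bp, none in WT), chr5:37282443-37284647 (740 bp, 623 bp in WT) and chr1:63899343-63900377 (611 bp, 1035 bp in WT). After the chr3 member above, *ddm1* H3K27me1 was longest at chr5:27199638-27200018 (326 bp, 371 bp in WT) and chr8:52976956-52977545 (311 bp, none in WT, where H3K9me2 covered all 590 bp).

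The flanks, which are longer than the members, differed between genotypes by more points than the members themselves. Within 5 kb on either side, a WT H3K9ac peak was present at 451 members (3.95%, 3.61 to 4.33), where 25.5% of all replicate 1 peaks had one. In *ddm1* this was so at 7151 members (62.7%, 61.8 to 63.6), close to the 60.8% of all replicate 1 peaks. The difference was 58.7 points (interval 57.8 to 59.6), or 39.6 points with H3K9ac lists of equal size. Kept peaks had H3K9ac in the flanks in 56.2% in WT and 60.4% in *ddm1*. The nearest H3K9ac peak to a member lay 65823 bp away in the median for the WT list and 2534 bp away for the *ddm1* list.

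The heterochromatin marks in the flanks went the other way. H3K9me2 was within 5 kb of 1536 members in WT (13.5%, 12.8 to 14.1, where 11.1% of all replicate 1 peaks had it) and of 583 in *ddm1* (5.11%, 4.72 to 5.53, where 5.34% had it). The difference was -8.35 points (interval -9.08 to -7.63). It was -3.15 points with H3K9me2 peaks of a q-value of 0.01 or lower and -4.58 points with lists of equal size. H3K27me1 was within 5 kb of 1114 members in WT (9.76%, 9.23 to 10.3, where 7.36% of all replicate 1 peaks had it) and of 676 in *ddm1* (5.93%, 5.51 to 6.37, where 6.24% had it). This difference was -3.84 points (interval -4.50 to -3.18), and -6.27 points with lists of equal size. Kept peaks had H3K27me1 in the flanks more often in *ddm1* (7.54%) than in WT (3.91%).

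Followed outward from the centre of the members, the marks had different shapes. *ddm1* H3K9ac covered 6.18% of the DNA within 500 bp of the centre, 6.59% between 2 and 2.5 kb, its highest, and a mean of 4.43% between 15 and 20 kb. WT H3K9ac covered 0.334% at the centre and 0.875% between 15 and 20 kb. WT H3K9me2 was lowest between 1 and 1.5 kb (0.747%) and highest between 5.5 and 6 kb (1.997%), while in *ddm1* it was 0.128% at the centre and 0.534% far out. WT H3K27me1, unlike WT H3K9me2, was higher at the centre (0.398%) than far out (0.204%), and in *ddm1* it was lower at the centre (0.0664%) than far out (0.178%). Over the chromosomes WT H3K27me1 covered 0.161%, less than at the centre of members. WT H3K9me2 covered 1.36% of the chromosomes, more than the 0.912% at the centre. WT H3K9me2 was also highest between 5.5 and 6 kb around new peaks absent from replicate 2 (2.29%) and around kept peaks (1.68%).

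**Figure D5:**
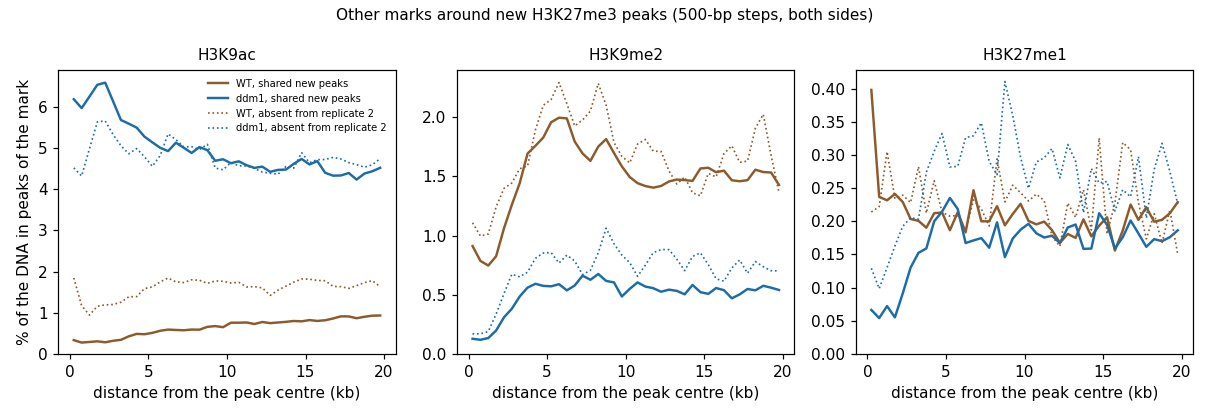
Share of the DNA (%) in peaks of H3K9ac, H3K9me2 and H3K27me1 by distance from the centre of new H3K27me3 peaks (kb, 500-bp steps, both sides), in WT and *ddm1*. Solid lines are the 11409 shared new peaks and dotted lines the 3066 absent from replicate 2. Around shared peaks *ddm1* H3K9ac was between 4.23% and 6.59% throughout and WT H3K9ac stayed below 1%.

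Being shared by replicate 2 went together with more *ddm1* H3K9ac and less WT H3K9ac. Of the new peaks absent from replicate 2, 8.87% held *ddm1* H3K9ac, 6.11 points fewer than members (interval 4.87 to 7.27), although their median replicate 1 enrichment was higher (2.21-fold against 1.99-fold). The difference was 8.07 points (6.49 to 9.52) in the central 50% of the chromosomes and 3.16 points (1.09 to 5.04) in the outer 50%. Within length classes it was smaller, 2.72 points (0.945 to 4.34) under 300 bp, 2.97 points (0.942 to 4.79) from 300 bp to under 500 bp and 3.65 points (0.550 to 6.39) from 500 bp to under 1 kb. It was 5.09 points in peaks of 1 kb or more, where the interval included 0 (-2.72 to 11.5). It was 1.09 points (0.201 to 1.89) with at least 50% of a peak covered, and -1.73 points (-5.68 to 1.95) within 5 kb of a WT H3K27me3 peak.

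In the other direction, 2.61% of new peaks absent from replicate 2 held WT H3K9ac, and 10.05% had it in the flanks. Members minus absent, the difference was -2.05 points (interval -2.69 to -1.52) inside the peak and -6.09 points (-7.26 to -5.01) in the flanks. WT H3K27me1 was found at 1.04% of them, 0.639 points fewer than at members (0.160 to 1.03). Within each of the 4 length classes and in the outer 50% of the chromosomes the interval of this difference included 0. The values were -0.215 to 0.748 points by length and -0.0335 points in the outer 50%. In the central 50% the difference was 1.09 points (0.510 to 1.54). It was 1.57 points (0.686 to 2.18) in peaks with a q-value of 0.01 or lower and 0.151 points (-0.451 to 0.630) in the others. A *ddm1* H3K27me1 peak was within 5 kb of 9.69%, where members minus absent came to -3.76 points (-4.94 to -2.67). For WT H3K9me2 inside the peak the difference, members minus absent, was -0.183 points, and its interval included 0 (-0.720 to 0.259). New peaks found only in replicate 2 peaks over 10 kb held *ddm1* H3K9ac in 10.8%, 4.22 points fewer than members (3.11 to 5.29). Within length classes this difference was 1.098 points (-0.655 to 2.75) under 300 bp, 1.85 points (0.0650 to 3.54) from 300 bp to under 500 bp, 4.04 points (1.73 to 6.21) from 500 bp to under 1 kb and 3.39 points (-1.48 to 7.83) at 1 kb or more. In the central 50% of the chromosomes, members and kept peaks had *ddm1* H3K9ac in nearly the same share, 16.0% and 16.1%, a difference of -0.104 points (-1.56 to 1.33), while in WT they had it in 0.204% and 16.2%.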

How the data were processed

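ChIP-seq peak lists of 9 libraries were used, grouped by genotype and antibody from the sample labels. Per the submitters' processing notes, the authors trimmed reads with Trimmomatic 0.38, aligned them with Bowtie2 2.3.5 and used SAMtools 1.9 and MACS3; the paper's methods give the M82 V1.0 assembly, a q-value of 0.05 and broad calling for H3K27me3. The control, and any pooling of replicates, are not given in the sources used here. Each deposited list gives start, end, fold enrichment (a ratio to the caller's local background), −log10 p, −log10 q and a score made from it. In broad lists the deposited ratio and −log10 values are means over the region. They were used only to describe, rank or filter peaks. The lowest −log10 q was 1.08 in the WT and 1.03 in the *ddm1* H3K9me2 list, near the 1.00 to 1.01 of the H3K27me3 lists. In the H3K27me1 and H3K9ac lists it was 1.30 to 1.34. The H3K9me2 lists may thus have been called otherwise than the methods state. Depth is unknown, and the number of plants per library was not used here.

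Peaks on the 12 chromosomes were used (225 others were left out) and 0 columns belonged to other samples. A chromosome was taken to end with its last peak. Overlap meant at least 1 bp, and flanks were 5 kb on each side. Shares have 95% Wilson intervals, and differences 95% Newcombe intervals, in the paired form for *ddm1* minus WT over the same peaks. The limit for 0 of 192 members was instead 3 divided by their number. No p-value was computed, since there was 1 list per group apart from the 2 *ddm1* H3K27me3 lists, both of which define the members. Named regions were the 5 longest and 5 most enriched members, the 3 runs and the 1-Mb window with the most members, the 3 members with the most bp of each mark list, and those beside the 10-kb limit. The members, classes and rules were chosen with earlier results of these data known. Overlaps were computed in Python 3.11.15 with numpy 2.4.6 after the code was tested on simulated intervals. Alternatives were other overlap rules, q-value limits, equal list sizes, a common minimum length for H3K9me2, other flank widths and each replicate left out. An annotation of the assembly and its sequence were not used here.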

Additional observations from a re-analysis of the deposited data

How the results depend on the processing

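Of 58 alternative values, 25 stayed near the value reported and 33 moved, but under these alternatives neither the differences between genotypes nor that in *ddm1* H3K9ac between members and new peaks absent from replicate 2 changed sign. The latter was -1.73 points among peaks within 5 kb of a WT H3K27me3 peak, and the other differences between classes were not recomputed. No paired analysis was possible because only the *ddm1* H3K27me3 group had numbered replicates. The number of members was 3778 with a q-value of 0.01 or lower in both *ddm1* H3K27me3 lists, and 19289 to 34002 with either replicate left out; with replicate 1 left out, the peaks are those of replicate 2 itself. The central share was 57.8% at that q-value, and 40.9% lay in the middle part when the chromosomes were cut into 3. With either replicate left out it was 59.4% to 59.8%, and the median gap was 639 to 3608 bp (chosen after seeing the data).

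Inside members, in points of *ddm1* minus WT, the H3K9ac difference was 13.3 with replicate 2 peaks of any length, 17.8 with the stricter H3K27me3 q-value, 7.55 with mark lists of equal size, 5.16 with at least 50% of a member covered, and 12.2 to 18.9 with either replicate left out. For H3K9me2 it was -0.438 with a q-value of 0.01 or lower for the mark, -0.763 with equal lists, -0.771 with 50% covered, and -2.41 to -0.985 with either replicate left out. For H3K27me1 it was -2.04 with the stricter H3K27me3 q-value, -0.149 with 50% covered, and -1.59 to -1.21 with either replicate left out.

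In the flanks the H3K9ac difference was 39.6 with equal lists, 41.9 within 2 kb, 67.6 within 10 kb and 53.3 to 56.6 with either replicate left out. For H3K9me2 it was -3.15 with the mark's q-value limit, -4.58 with equal lists, -3.40 within 2 kb, -14.5 within 10 kb, -10.8 with 1 minimum length and -9.10 to -8.29 with either replicate left out. For H3K27me1 it was -6.27 with equal lists and -4.38 to -2.61 with either replicate left out. *ddm1* H3K9ac in members exceeded that in new peaks absent from replicate 2 by 1.09 points with 50% covered. Peak lists show no signal below the calling threshold, so a mark called absent may be present at a lower level, and the small number of lists, 1 per group or 2 for *ddm1* H3K27me3, limits each comparison to these libraries.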
